A study of Mus musculus with 7 samples.

Results

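Forkhead box (Fox) genes encode transcription factors that share the winged-helix DNA-binding domain, and 44 of the 21627 protein-coding genes on chromosomes 1 to 19 and X carry such a name. They were chosen by symbol alone (Fox, 1 letter, then a number), with no measured value in the choice. The cells were mouse bone marrow cells of BALB/c background into which retroviruses had carried mutant forms of CSF3R (a cytokine receptor of granulocytes) and of CEBPA (a myeloid transcription factor), and which grew as leukaemia cells. Both treatment groups carried both transgenes. The groups were DMSO, the solvent control, and 4 nM GSK-LSD1 for 48 h, an inhibitor of the histone demethylase LSD1, which removes methyl groups from lysine 4 of histone H3. In each group H3K4me1, H3K4me3 and H3K27Ac were profiled by ChIP-seq, giving 6 immunoprecipitated libraries, and 1 input library was also listed. The labels did not name the promoter that drove the transgenes, nor how many cultures or animals the cells came from.

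The libraries of each treatment were deposited as a single segmentation, which gives every 200 bp bin 1 of 6 states, E1 to E6. With 1 segmentation per treatment there was no replicate and no test, so every difference below is between those segmentations. Which marks define each state, and whether both treatments were segmented with the same model, was not given in the sources used here. States were compared by number, so a state in DMSO may not stand for the same marks as the state of that number in GSK-LSD1, and every difference below carries this limit. E3 covered most of the genome (73.3% in DMSO, 70.1% in GSK-LSD1) and is called background, and all other states are called marked. E5 and E6 lay at the ends of protein-coding genes 13.3 and 9.45 times more often than their genome share in DMSO, and 10.1 and 7.85 times in GSK-LSD1, and are treated together as the start-site-type states. Across the genome E6 covered 0.217% in DMSO and 2.08% in GSK-LSD1, and E1 covered 0.483% and 4.72%, so every E1 and E6 value below has to be read beside a genome-wide difference in the same direction. Read depth and precipitation quality were unknown, and their part in these differences was not tested. In a bulk culture a mark in fewer cells and a weaker mark in every cell cannot be told apart.

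Forkhead factors bind DNA as monomers, and several of them, the FOXA proteins first among them, act as pioneer factors that engage nucleosomal DNA. Many family members are patterning genes of embryonic tissues outside the blood. A smaller set works in haematopoietic cells. The FOXO proteins are held out of the nucleus when PI3K and AKT are active, and they guard stem cell quiescence. FOXP1 and FOXP3 are repressors of lymphoid cells, and FOXM1 drives mitotic genes. The FOXK, FOXN2, FOXN3, FOXJ2 and FOXJ3 proteins are widely expressed.

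In these cells most of the blood and widely expressed Fox genes carried a start-site-type state at an end in DMSO. Foxp3 was the exception, and several embryonic patterning genes also carried such a state. The promoters below are examples from the classes of behaviour described in the following paragraphs. Whether their sequence had a part in those classes was not tested. They run from 250 bases before to 50 bases after an annotated start, 5′ to 3′ on the gene's strand, from RefSeq (GRCm38.p6), with CG dinucleotides in capitals. The table held 33 promoters of 28 Fox genes. At the Foxo3, Foxk2 and Foxp4 starts, E5 in DMSO was E6 in GSK-LSD1; at Foxd3, E4 was E5; at Foxf2 and Foxn4, E5 was E4; at Foxi1 and Foxp3, both segmentations had E3.
Foxo3 (chr10:42276646-42276945, minus strand): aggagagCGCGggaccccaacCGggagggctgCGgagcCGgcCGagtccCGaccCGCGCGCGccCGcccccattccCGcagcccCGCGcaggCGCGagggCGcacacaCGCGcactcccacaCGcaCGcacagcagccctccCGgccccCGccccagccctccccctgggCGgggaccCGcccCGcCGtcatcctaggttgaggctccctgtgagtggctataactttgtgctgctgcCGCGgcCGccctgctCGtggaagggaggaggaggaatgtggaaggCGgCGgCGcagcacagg
Foxk2 (chr11:121259737-121260036, plus strand): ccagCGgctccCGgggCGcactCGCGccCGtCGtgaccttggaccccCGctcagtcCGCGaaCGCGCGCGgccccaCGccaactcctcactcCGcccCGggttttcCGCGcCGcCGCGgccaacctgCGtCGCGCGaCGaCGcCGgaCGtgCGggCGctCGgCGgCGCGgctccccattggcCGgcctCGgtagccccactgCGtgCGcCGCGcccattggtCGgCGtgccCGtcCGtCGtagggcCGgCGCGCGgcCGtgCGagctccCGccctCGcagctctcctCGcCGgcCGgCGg
Foxp4 (chr17:47924583-47924882, minus strand): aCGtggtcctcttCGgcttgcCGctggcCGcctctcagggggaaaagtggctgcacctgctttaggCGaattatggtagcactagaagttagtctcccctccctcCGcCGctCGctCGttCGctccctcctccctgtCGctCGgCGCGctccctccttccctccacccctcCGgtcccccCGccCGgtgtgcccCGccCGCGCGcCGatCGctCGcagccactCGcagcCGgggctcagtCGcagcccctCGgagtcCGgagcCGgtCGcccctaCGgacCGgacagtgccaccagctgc
Foxd3 (chr4:99656049-99656348, plus strand): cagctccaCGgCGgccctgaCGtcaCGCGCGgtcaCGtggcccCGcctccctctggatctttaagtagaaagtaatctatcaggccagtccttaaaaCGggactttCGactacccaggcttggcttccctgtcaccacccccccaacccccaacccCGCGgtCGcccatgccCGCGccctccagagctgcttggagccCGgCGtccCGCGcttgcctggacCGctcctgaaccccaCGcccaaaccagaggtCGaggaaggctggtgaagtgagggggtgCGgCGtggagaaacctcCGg
Foxf2 (chr13:31625566-31625865, plus strand): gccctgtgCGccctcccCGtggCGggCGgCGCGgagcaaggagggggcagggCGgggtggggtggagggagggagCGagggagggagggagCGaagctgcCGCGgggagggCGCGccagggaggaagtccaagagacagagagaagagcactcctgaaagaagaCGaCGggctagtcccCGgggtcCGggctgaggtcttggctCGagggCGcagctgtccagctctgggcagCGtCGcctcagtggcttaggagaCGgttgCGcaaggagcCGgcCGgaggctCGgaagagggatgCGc
Foxn4 (chr5:114273712-114274011, minus strand): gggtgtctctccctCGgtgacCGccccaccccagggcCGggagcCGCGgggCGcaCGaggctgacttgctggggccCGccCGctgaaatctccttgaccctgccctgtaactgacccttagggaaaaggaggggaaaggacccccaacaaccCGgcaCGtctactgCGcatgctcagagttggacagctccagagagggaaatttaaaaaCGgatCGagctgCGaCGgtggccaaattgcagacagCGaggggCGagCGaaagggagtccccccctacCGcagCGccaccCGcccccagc
Foxi1 (chr11:34208040-34208339, minus strand): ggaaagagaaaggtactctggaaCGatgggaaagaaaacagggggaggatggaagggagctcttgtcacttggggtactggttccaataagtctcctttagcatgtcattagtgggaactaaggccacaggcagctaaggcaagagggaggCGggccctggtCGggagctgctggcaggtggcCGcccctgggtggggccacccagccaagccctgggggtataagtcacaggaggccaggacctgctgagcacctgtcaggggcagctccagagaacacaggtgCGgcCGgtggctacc
Foxp3 (chrX:7579426-7579725, plus strand): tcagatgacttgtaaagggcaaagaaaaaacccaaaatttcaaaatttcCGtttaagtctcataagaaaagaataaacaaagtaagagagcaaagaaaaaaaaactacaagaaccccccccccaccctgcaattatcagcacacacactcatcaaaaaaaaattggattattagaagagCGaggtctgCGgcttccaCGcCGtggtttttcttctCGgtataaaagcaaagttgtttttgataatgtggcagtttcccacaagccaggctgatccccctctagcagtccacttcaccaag

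The Fox promoters in E5 and those in background differed in their CG count. Fox promoters whose start lay in E5 in DMSO (18 promoters) had a median of 27 CG dinucleotides in 300 bases, from 10 to 59, beside a median of 22 over all 10454 promoters in E5. The 6 Fox promoters in E3 had a median of 6, from 3 to 8, beside 3.0 over all 5876 promoters in E3. Of the 18 Fox promoters with E5 in DMSO, 5 had E6 in GSK-LSD1. Foxk2 had 59 CG, an internal Foxp1 start at position 99028298 had 44, Foxj3 had 42, Foxo3 had 35 and Foxp4 had 33. The Fox promoters that kept E5 overlapped with these, from 10 CG at Foxb2 to 37 at Foxj2, which is above Foxo3 and Foxp4. Foxf2 with 27 CG had E4 in place of E5 under GSK-LSD1, and Foxi3 with 31 CG had E4 in DMSO and E3 in GSK-LSD1. Over all promoters in E5, 5352 of 10454 had E6 in GSK-LSD1. Motifs were searched on both strands, and none of them contains another. The forkhead motif TGTTTAC was in 1 of the 33 Fox promoters (3.03%), at Foxa1, and in 3.03% of all 21044. The GFI1 motif AAATCAC was in 0 of the 33 and in 2.85% of all, the PU.1 motif GAGGAAGT in 2 (6.06% against 3.15%), at Foxa2 and Foxf2, and the C/EBP motif TTGCNNAA in 4 (12.1% against 10.3%).

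Because the gene table gave no strand, a gene counted as having a start-site-type end when the bin at either of its ends was E5 or E6. By that rule 26 of the 44 Fox genes had such an end in DMSO (59.1%, 95% Wilson interval 44.4 to 72.3), beside 51.7% of all protein-coding genes. In GSK-LSD1 27 had one (61.4%, 46.6 to 74.3), beside 54.8%. Both background shares lay inside the Fox intervals, which cover counting error over genes only. All 4 FOXO genes had an end in both segmentations: Foxo1, Foxo3, Foxo4 and Foxo6. So did all of the J and K genes (Foxj1, Foxj2, Foxj3, Foxk1, Foxk2), as well as Foxm1, Foxh1, Foxn2, Foxn3, Foxp1, Foxp2 and Foxp4. Patterning genes were in the same class: Foxa3 (liver), Foxc1 (mesoderm and neural crest), Foxd1 (kidney stroma), Foxl2 (ovary), Foxq1, Foxb2, Foxd2 and Foxd4.

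**Figure D1:**
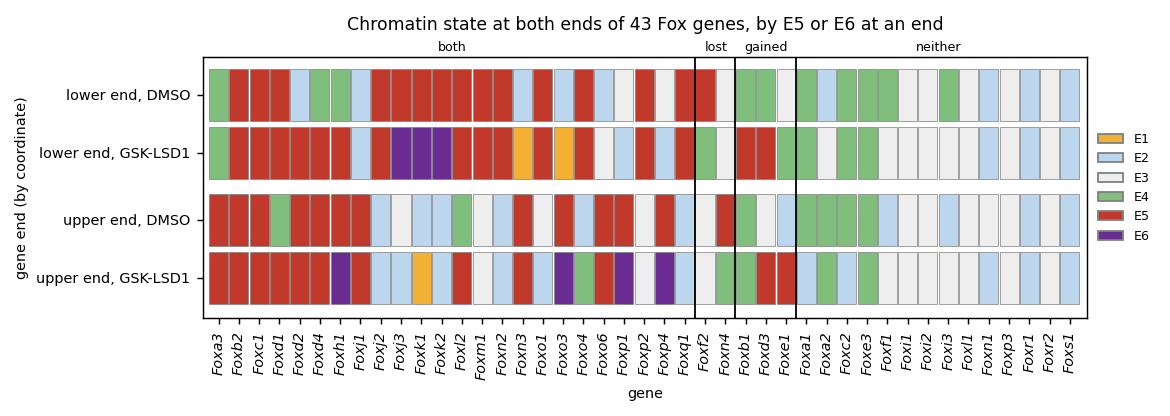
State of the bin at the lower-coordinate and the upper-coordinate end of 43 Fox genes (columns) in DMSO and in GSK-LSD1 (rows), grouped by whether E5 or E6 was at an end in both segmentations, in DMSO only, in GSK-LSD1 only or in neither. E6 is absent from the DMSO rows and appears at 7 genes in the GSK-LSD1 rows, all of them in the group with an end in both.

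The states at Fox ends were set beside those at the ends of all genes, as shares with no test. Of the 88 Fox gene ends, 18 lay in E4 in DMSO (20.5%), against 7.89% of 43254 ends of all genes, and 28 lay in E5 (31.8% against 26.4%). None of the 44 Fox genes had E6 at an end in DMSO, with a Wilson upper limit of 8.03%, beside 3.91% of all genes, so at this number of genes the difference could not be seen. In GSK-LSD1 11 of the 88 ends lay in E4 (12.5% against 5.96%), 28 in E5 (31.8% against 15.4%) and 7 in E6 (7.95% against 16.3%). By gene, 7 of the 26 genes with an end in DMSO had E6 at an end in GSK-LSD1 (26.9%, 13.7 to 46.1), beside 54.1% of all such genes, which is above the Fox interval. They were Foxj3, Foxk1, Foxp1, Foxo3, Foxk2, Foxh1 and Foxp4. Read by single ends, 19 of the 28 Fox ends in E5 kept E5 (67.9% against 48.6%), 7 were E6 (25.0% against 49.0%) and 2 were E4 (7.14% against 1.87%). Of the 18 ends in E4, 7 kept E4, 6 were E5 (33.3% against 28.6%), 3 were E2, 2 were E3 and 0 were E6, where 13.2% of all E4 ends were. The genes with E6 ends included Foxh1, whose protein is a SMAD partner in Nodal signalling, and none of the other patterning genes. Blood and widely expressed genes, as grouped above, were on both sides. Foxj2, Foxm1, Foxn2, Foxn3, Foxo1 and Foxo4 had an end in both segmentations but no E6 at either end.

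Start-site-type area was then measured in a window of 20 kb either side of both gene ends. Over all 44 windows the E5 plus E6 area was 187.6 kb in DMSO and 264.0 kb under GSK-LSD1. It was higher in GSK-LSD1 at 32 Fox genes (72.7%, 58.2 to 83.7, beside 66.1% of all genes), lower at 7 (15.9%, 7.93 to 29.4, beside 4.30%) and equal at 5. Most of the added area lay in or next to the Fox genes themselves. Within 2.5 kb of the gene it was 123.6 kb in DMSO and 166.0 kb under GSK-LSD1, near the ends of other genes 44.8 and 63.8 kb, and elsewhere in the windows 19.2 and 34.2 kb. Fox windows were shorter than usual, with a median of 45.4 kb beside 57.6 kb, because Fox genes are short (median 5.2 kb beside 17.3 kb), so areas in kb are not matched to those of all genes. As a share of window area, E5 plus E6 took 7.77% in DMSO and 10.9% in GSK-LSD1 at Fox genes, and 7.92% and 11.9% at all genes.

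The share of genes with more area was below that of all genes where an end was present in DMSO, and above it where none was. Of the 26 with an end, 20 had more E5 plus E6 area in GSK-LSD1 (76.9%, 57.9 to 89.0), beside 93.6% of all genes with an end, and 5 had less (19.2%, 8.51 to 37.9), beside 4.60%. Their median difference was 1.6 kb, from a median of 4.8 to 6.3 kb, beside 3.0 kb, from 6.4 to 9.6 kb, over all genes with an end. Of the 18 without an end, 12 had more (66.7%, 43.7 to 83.7), beside 36.7%, and 2 had less (11.1%, 3.1 to 32.8), beside 3.96%. Their median difference was 1.0 kb beside 0 kb. Areas that were at least 1.5 times as large were near the background in both groups: 10 of 26 (38.5%) beside 43.3%, and 6 of the 13 without an end that had any such area in DMSO (46.2%) beside 47.7%. Only 3 of the 18 had no E5 or E6 in the window in either segmentation (16.7%, 5.84 to 39.2), Foxi1 and Foxi2 among them. The share over all genes without an end was 57.8%. Genes with none in either segmentation could not have more area. The contrast of 66.7% beside 36.7% therefore sets side by side groups that differ in this share, and so does that of the medians. The windows of Foxd2 and Foxe3 overlap, as do those of Foxf1, Foxc2 and Foxl1, so these 5 genes share bins.

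**Figure D2:**
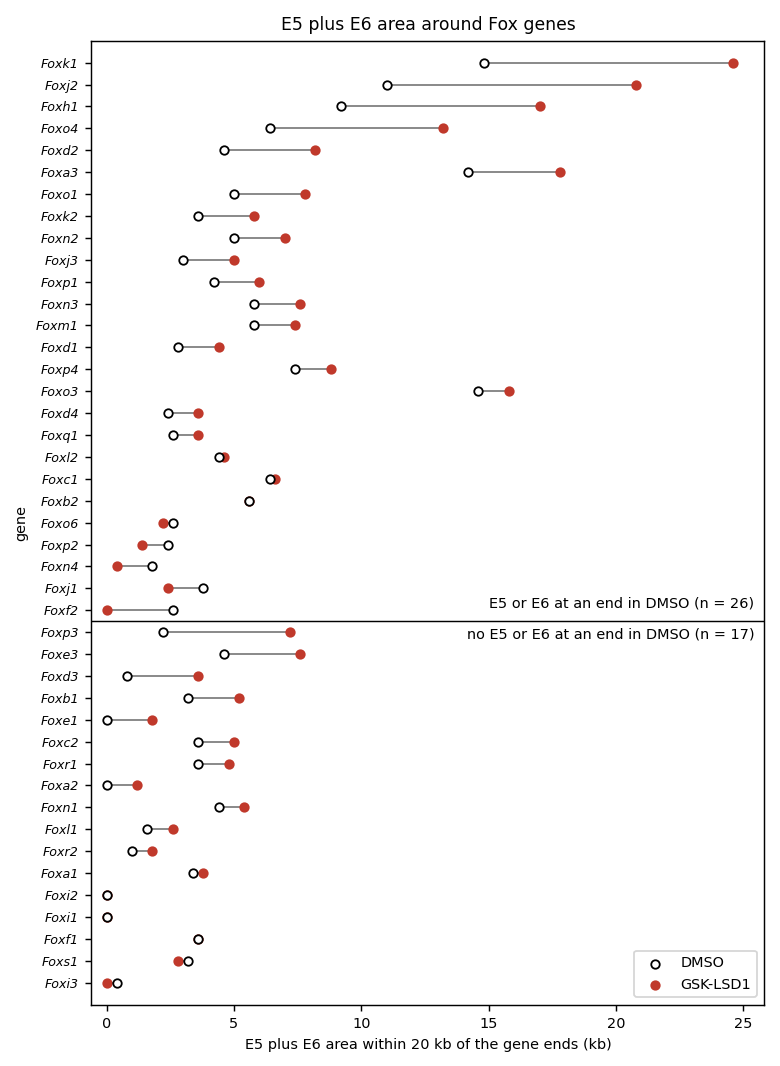
E5 plus E6 area (kb, horizontal axis) within 20 kb of the ends of 43 Fox genes in DMSO (open points) and in GSK-LSD1 (filled points), with the 26 genes that had an end in DMSO above the line and 17 without one below it. Foxk1 and Foxj2 have the longest lines to the right, while Foxf2, Foxj1, Foxn4, Foxp2 and Foxo6 are the genes with an end whose filled point lies to the left of the open one.

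**Figure D3:**
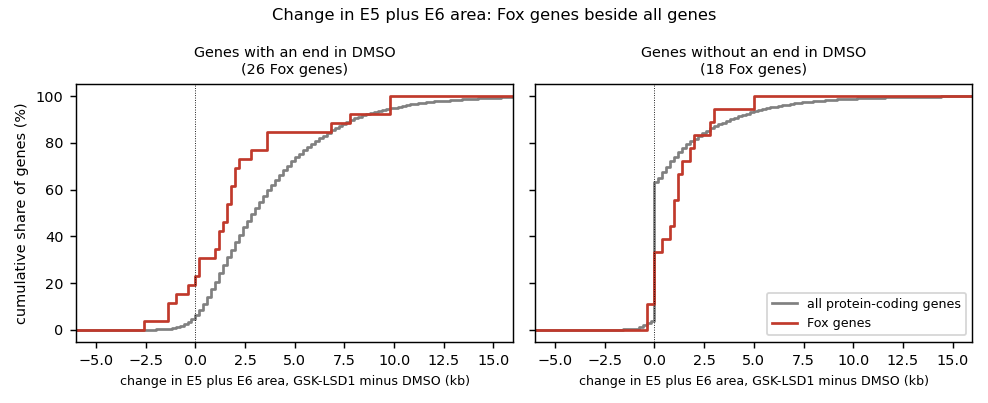
Cumulative share of genes (%, vertical axis) by difference in E5 plus E6 area, GSK-LSD1 minus DMSO (kb, horizontal axis), for Fox genes and for all protein-coding genes, with an end in DMSO on the left and without one on the right. On the left the Fox line lies above the line of all genes over most of the range, meaning smaller differences (median 1.6 against 3.0 kb), and on the right it lies below it around 0 and small gains, meaning fewer genes with no difference.

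Foxk1 and Foxj2 had the largest differences. Foxk1 encodes a repressor that works with the SIN3 complex and the BAP1 deubiquitinase, and its window held 14.8 kb of E5 plus E6 in DMSO and 24.6 kb in GSK-LSD1. It already had E6 in DMSO, and a continuous stretch over its start lengthened from 8.2 kb (chr5:142400001-142408200) to 11.0 kb (chr5:142399001-142410000). The Foxj2 window held 11.0 and 20.8 kb; its own part, within 2.5 kb of the gene, was 4.8 and 8.8 kb, and the rest lay around C3ar1 and Slc2a3 or between genes. The paralogue Foxk2 had 3.6 and 5.8 kb, all of it its own. At Foxk1 and Foxj2 the higher value came from E6, since E5 alone was lower in GSK-LSD1: 8.8 and 4.0 kb at Foxk1, and 11.0 and 9.6 kb at Foxj2.

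Among genes with an end in both segmentations Foxh1 and Foxo4 followed, and then Foxa3 and Foxd2 with equal differences. Foxh1, Foxo4 and Foxa3 stand among other marked genes. Foxh1 had 9.2 kb in DMSO and 17.0 kb under GSK-LSD1, of which 2.6 and 5.8 kb were its own, with Cyhr1, Kifc2 and Ppp1r16a in the window. Foxo4, the X-linked FOXO gene, had 6.4 and 13.2 kb, of which 2.0 and 4.6 kb were its own and 4.4 and 8.6 kb lay near the ends of Il2rg, Med12 and Gm614. Foxa3, a liver and endoderm gene, had 14.2 and 17.8 kb, of which 4.0 and 5.0 kb were its own, beside Irf2bp1, Mypop and Sympk. The windows of these 3 genes therefore describe their neighbourhoods more than the Fox genes. With E4 counted as well, Foxh1 was 0.4 kb lower in GSK-LSD1, because 16.2 kb of E4 in DMSO was 8.0 kb in GSK-LSD1.

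The FOXO genes differed among themselves. Foxo1, a FOXO factor of lymphoid and metabolic tissues, had 5.0 kb in DMSO and 7.8 kb under GSK-LSD1, and its start kept E5. Its marked area was 54.8 and 80.4 kb, that is, the whole window in GSK-LSD1, as E2 lay where E3 had been, and its 5.6 kb of E1 in GSK-LSD1 lay within a stretch that was E2 in DMSO. Foxo3, the FOXO gene best known for the maintenance of blood stem cells, began with far more, 14.6 kb, and had 15.8 kb in GSK-LSD1. Its start carried a stretch of 11.2 kb in DMSO (chr10:42268401-42279600), mostly E5, and of 13.4 kb in GSK-LSD1 (chr10:42267401-42280800), in which 10.2 kb was E6. Foxo6, a gene of the brain, had 2.6 and 2.2 kb, and its marked area was 23.2 kb in DMSO and 7.2 kb under GSK-LSD1. The window area was thus higher in GSK-LSD1 at Foxo1, Foxo3 and Foxo4 and lower at Foxo6, where the difference turned to 0.6 kb higher with E4 counted as well. Within 2.5 kb of the gene Foxo3 had less, 13.6 kb in DMSO and 12.6 kb under GSK-LSD1, and its window was higher through the area farther away, 1.0 and 3.2 kb.

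Among the remaining genes with an end, Foxp4 and the blood and widely expressed genes had small gains. Foxm1 had 5.8 and 7.4 kb, Foxn2 5.0 and 7.0 kb, and Foxn3, a checkpoint repressor, 5.8 and 7.6 kb. Foxj3 had 3.0 and 5.0 kb, Foxp1 4.2 and 6.0 kb and Foxp4 7.4 and 8.8 kb. In all 6 the area in GSK-LSD1 was 1.4 to 2.0 kb larger. Among the patterning genes Foxd2 had 4.6 and 8.2 kb, Foxd1 2.8 and 4.4 kb, Foxd4 2.4 and 3.6 kb and Foxq1 2.6 and 3.6 kb. Foxl2 (4.4 and 4.6 kb), Foxc1 (6.4 and 6.6 kb) and Foxb2 (5.6 kb in both) were nearly the same in both segmentations. Foxc1, a gene that is misexpressed in a subset of human acute myeloid leukaemias, had E5 at both ends in both segmentations, and its own stretch was 5.2 kb in DMSO and 6.2 kb under GSK-LSD1.

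Foxj1 and Foxp2 kept E5 at an end but had less of it. Foxj1, the master gene of motile cilia, had 3.8 kb in DMSO and 2.4 kb under GSK-LSD1, while E1, absent in DMSO, took 11.4 kb of its window. Foxp2, a gene of brain and lung, had a lone E5 stretch of 2.4 kb (chr6:14900201-14902600) in DMSO and of 1.4 kb (chr6:14900201-14901600) in GSK-LSD1. It stood by itself at the start of a gene of 540.63 kb whose body was 99.7% E3 in both segmentations.

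Foxe1, Foxd3 and Foxb1 gained a start-site-type end, 3 of the 18 genes without one (16.7%, 5.84 to 39.2), beside 8.51% of all such genes. Foxf2 and Foxn4 lost it at every end, 2 of 26 (7.69%, 2.14 to 24.1), beside 1.90%. Both Fox intervals include the background share. All 5 are embryonic genes, and in each the difference in E5 covered a short stretch in or around the gene. Foxd3, a gene of neural crest and pluripotent cells, held E5 over 0.8 kb inside the gene in DMSO (chr4:99656801-99657600) and over 3.6 kb across the whole gene in GSK-LSD1 (chr4:99655201-99658800), in both cases between E4 flanks in E3. Foxe1, a thyroid gene, had no E5 in DMSO and 1.8 kb in GSK-LSD1 (chr4:46344001-46345800), over bins that were E4 and E2 in DMSO. Foxb1, of the developing diencephalon, had 3.2 and 5.2 kb, and its E5 stretch extended by 0.4 kb to cover the lower-coordinate end.

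The losses of E5 were as local. Foxf2, a gene of gut and palate mesenchyme, had stretches of 1.0 kb (chr13:31625801-31626800) and 1.6 kb (chr13:31628801-31630400) in E5 in DMSO and none in GSK-LSD1, where both stretches were E4. Foxn4, which specifies retinal and spinal interneurons, had 1.8 kb of E5 in DMSO and 0.4 kb in GSK-LSD1 (chr5:114273801-114274200). That remnant began within the printed promoter but missed both bins at the annotated ends. Beyond E5 the difference at Foxn4 was wider, with a marked area of 35.2 kb in DMSO and 16.8 kb under GSK-LSD1. Reading any bin within 1 kb of an end in place of the end bin itself left 3 gains and 2 losses, with other names: Foxe1, Foxa2 and Foxc2 as gains, and Foxf2 and Foxi3 as losses. Foxe1 and Foxf2 were thus the genes called by both readings.

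**Figure D4:**
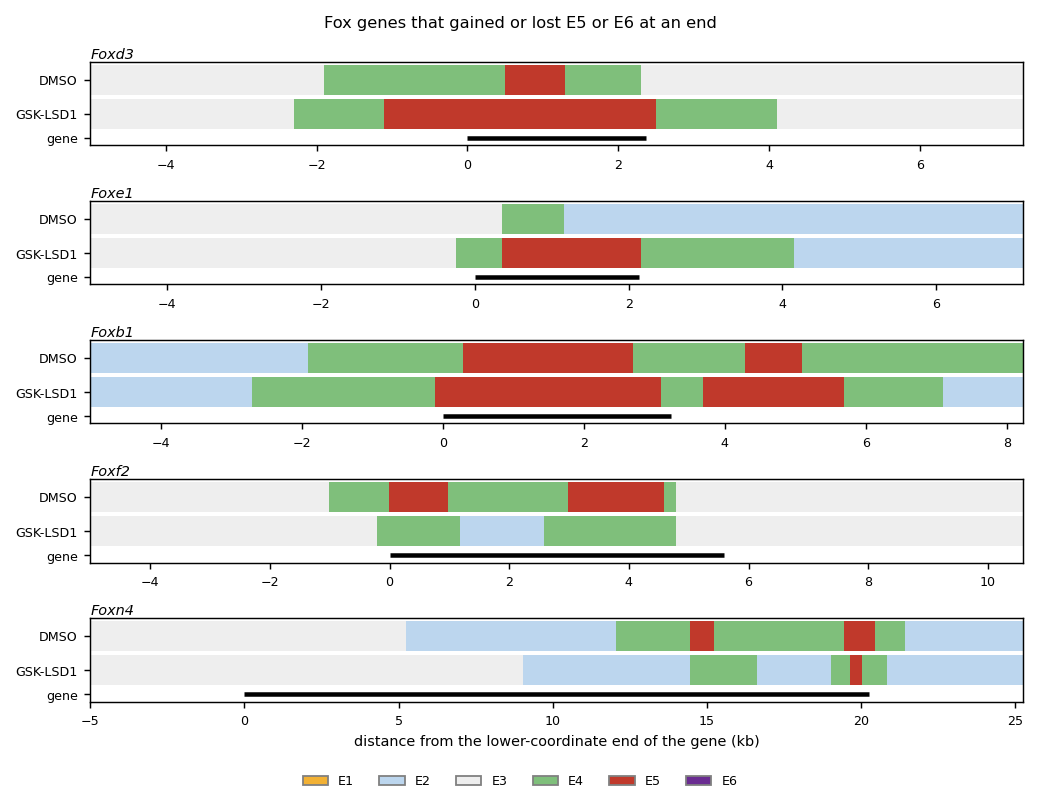
States along the 5 Fox genes that gained (Foxd3, Foxe1, Foxb1) or lost (Foxf2, Foxn4) E5 or E6 at an end, in DMSO and in GSK-LSD1, against distance from the lower-coordinate end of the gene (kb, horizontal axis), with the gene as a black bar. E5 (red) widens from 0.8 to 3.6 kb at Foxd3, is absent from the GSK-LSD1 bar of Foxf2 and shrinks to 0.4 kb at Foxn4.

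In the 18 genes without an end in DMSO, part of the window area belonged to neighbours. Their own E5 plus E6 area was 10.0 kb in DMSO and 19.6 kb under GSK-LSD1, higher at 9 genes, lower at 2 and equal at 7. Foxp3, which defines regulatory T cells, shows the point: its window had 2.2 kb in DMSO and 7.2 kb under GSK-LSD1, yet its own area was 0 in both, its ends and its 2 annotated starts stayed in E3, and 2.2 and 6.2 kb lay near the ends of Cacna1f, Ccdc22 and Ppp1r3f. Foxr1 (3.6 and 4.8 kb), Foxr2 (1.0 and 1.8 kb) and Foxs1 (3.2 and 2.8 kb) likewise had no area of their own. Foxn1, the gene of thymic epithelium, had 4.4 and 5.4 kb, of which 0.4 and 0.8 kb were its own, and the area in GSK-LSD1 was mostly E6 (4.6 kb). Its marked area was 23.8 kb in DMSO and 69.4 kb under GSK-LSD1, the largest such difference of the family.

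The clustered genes shared their values. Foxe3, a lens gene, had 4.6 and 7.6 kb, of which 3.8 and 5.8 kb belonged to the end of Foxd2. Foxc2, of lymphatic vessels and mesenchyme, had 3.6 and 5.0 kb, of which 0 and 0.4 kb were its own. Foxl1, of gut mesenchyme, had 1.6 and 2.6 kb, and Foxf1, of lung and gut mesenchyme, 3.6 kb in both. These last 3 lie side by side on chromosome 8 with Mthfsd in the windows. Foxa1 had 3.4 and 3.8 kb, and its annotated start at position 57546111 lay inside the gene in E5 in both segmentations, so the rule by gene ends missed it. Foxa2 had none in DMSO and 1.2 kb in GSK-LSD1, over annotated starts inside the gene.

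Foxi1, Foxi2 and Foxi3 had from 0 to 0.4 kb of E5 plus E6. Foxi1, of the inner ear and kidney, had 5.0 and 10.0 kb of marked area, none of it E4, E5 or E6. Foxi2 had no marked bin in its window in either segmentation. Foxi3, of ectodermal placodes, had 0.4 kb of E5 just outside its lower-coordinate end, which was E4, and 12.4 kb of marked area in DMSO, and in GSK-LSD1 the whole window was E3.

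Fewer Fox windows than windows of all genes held E1 or E6. The counts and areas below were not matched for window length. The median window was 45.4 kb at Fox genes and 57.6 kb at all genes, and 56.8 and 62.2 kb at those with an end in DMSO. In DMSO 4 of the 44 windows held either state (9.09%, 3.59 to 21.2), beside 26.4% of all genes: Foxk1 (18.6 kb), Foxo3 (7.6 kb), Foxk2 (5.4 kb) and Foxp4 (1.4 kb). All 4 had an end in DMSO, so these were 4 of 26 (15.4%) beside 39.2%, and 0 of 18, with a Wilson upper limit of 17.6%, beside 12.6%. In GSK-LSD1 17 windows held either state (38.6%, 25.7 to 53.4), beside 59.4%, of which 14 had an end in DMSO (53.8% beside 84.2%) and 3 had none (16.7% beside 32.9%). The E1 plus E6 area was higher in GSK-LSD1 at the same 17 genes, beside 58.9% of all genes, with 14 of 26 beside 83.7% and 3 of 18 beside 32.4%. It was lower at 0 of 44, beside 0.948%, and so at 0 of 26 (0.885%) and 0 of 18 (1.02%). Among the genes with an end the median difference was 2.6 kb beside 7.6 kb. Pooled over the windows of genes with an end, the share of E6 was lower at Fox genes and that of E1 was similar. E6 took 0.635% in DMSO and 4.8% in GSK-LSD1 at Fox genes, against 1.01% and 9.42% over all genes. E1 took 1.46% and 10.8% against 1.18% and 10.9%. These shares are sums, and Foxo3, Foxk1, Foxj3 and Foxn2 gave most of the E1 area in GSK-LSD1 at the 26 Fox genes. Only 14 of the 26 windows held E1 or E6 in GSK-LSD1, so the pooled E1 share does not describe a typical Fox window.

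The 17 windows were those of Foxo1, Foxo3 and Foxo4; Foxp1, Foxp3 and Foxp4; Foxn1, Foxn2 and Foxn3; Foxj1, Foxj2 and Foxj3; Foxk1 and Foxk2; and Foxa3, Foxh1 and Foxr1. No gene of the letters B, C, D, E, F, I, L, M, Q or S had E1 or E6 in the window in either segmentation, Foxm1 included. The largest areas in GSK-LSD1 were at Foxo3 (57.6 kb, from 7.6 kb), Foxk1 (46.2 kb, from 18.6 kb), Foxj2 (27.6 kb, from 0), Foxn2 (22.2 kb, from 0) and Foxj3 (21.8 kb, from 0). These are window areas, and at some genes little or none of it lay in the gene. The Foxj2 window held 16.4 kb of E1 and 11.2 kb of E6 in GSK-LSD1, but its body held no E1 and 0.6 kb of E6. The bodies of Foxa3, Foxj1, Foxn1, Foxo4, Foxp3 and Foxr1 held neither state in GSK-LSD1. At Foxp3 and Foxr1 none of the E6 was within 2.5 kb of the Fox gene.

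Marked area of any kind went both ways. It was higher in GSK-LSD1 at 19 genes (43.2%, 29.7 to 57.8), beside 29.9%, and lower at 15 (34.1%, 21.9 to 48.9), beside 21.0%. After Foxn1, the largest increase named by the rule among genes without an end was at Foxe3 (22.8 and 41.8 kb), and Foxp3 had 11.4 and 23.6 kb. Foxl1 had less, 26.8 and 18.2 kb.

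Windows around the ends leave out the middle of long genes, so the bodies of the 10 Fox genes of at least 40 kb were read from end to end. E1 was higher in GSK-LSD1 in 9 of them (90.0%, 59.6 to 98.2), beside 51.2% of the 6000 protein-coding genes of that length. All 10 had an end in DMSO, and among the 3514 long genes that did, 66.5% had more E1, a share inside the Fox interval. In total E1 covered 68.2 kb of the 10 bodies in DMSO and 423.8 kb in GSK-LSD1, while E2 covered 1071.0 and 871.0 kb. The median share of E1 was 1.98% in DMSO and 24.8% in GSK-LSD1, beside 0% and 5.74% over the long genes with an end. E5 plus E6 covered 76.0 and 120.8 kb, higher in 8 of the 10, beside 86.6% of long genes with an end and 66.8% of all long genes. It was lower in Foxo3 and Foxp2.

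Among the 10 bodies Foxo3 had the largest rise in the share of E1 and Foxp1 the largest rise in E1 area. E1 took 28.6 kb of the Foxo3 body in DMSO (30.1%) and 77.4 kb in GSK-LSD1 (81.5%), and 148 of the 6000 long genes (2.47%) had a larger rise in share. This rank, and those of Foxp1 and Foxn2 below, include long genes without an end in DMSO. The median E1 share in GSK-LSD1 was 0.748% over all long genes and 5.74% over those with an end. Ranks among long genes with an end were not computed. In the same body E5 was 10.2 kb in DMSO and 0 in GSK-LSD1, and E6 was 3.0 and 10.2 kb. Foxp1, a regulator of lymphocyte and monocyte development, spans 597.4 kb, and E1 took 9.2 kb of it in DMSO (1.54%) and 240.8 kb in GSK-LSD1 (40.3%), with 387 long genes (6.45%) above it. Its E3, 16.0% of the body in DMSO, was 0 in GSK-LSD1. Its E5 was 20.6 and 3.6 kb and its E6 0.2 and 44.6 kb, and the longest E6 stretch, 8.4 kb (chr6:99021801-99030200), covered the internal start with 44 CG. By windows at the ends alone Foxp1 would show 1.8 kb of E6 and no E1.

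By rise in the share of E1 Foxn2 came between Foxo3 and Foxp1. It had 2.2 kb of E1 in DMSO (4.4%) and 23.6 kb in GSK-LSD1 (47.2%), with 301 long genes (5.02%) above it. Foxj3 had none and 21.2 kb (23.7%), and its E3, 39.0 kb in DMSO, was 0 in GSK-LSD1. Foxk1 had 18.6 and 26.0 kb (30.6% and 42.8%), with E6 at 9.2 and 25.8 kb. Foxk2 had 8.2 and 13.0 kb, Foxn3 none and 12.4 kb, Foxo1 none and 5.6 kb and Foxp4 1.4 and 3.8 kb. Foxp2 had none in either and was the exception to the gain of E1.

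**Figure D5:**
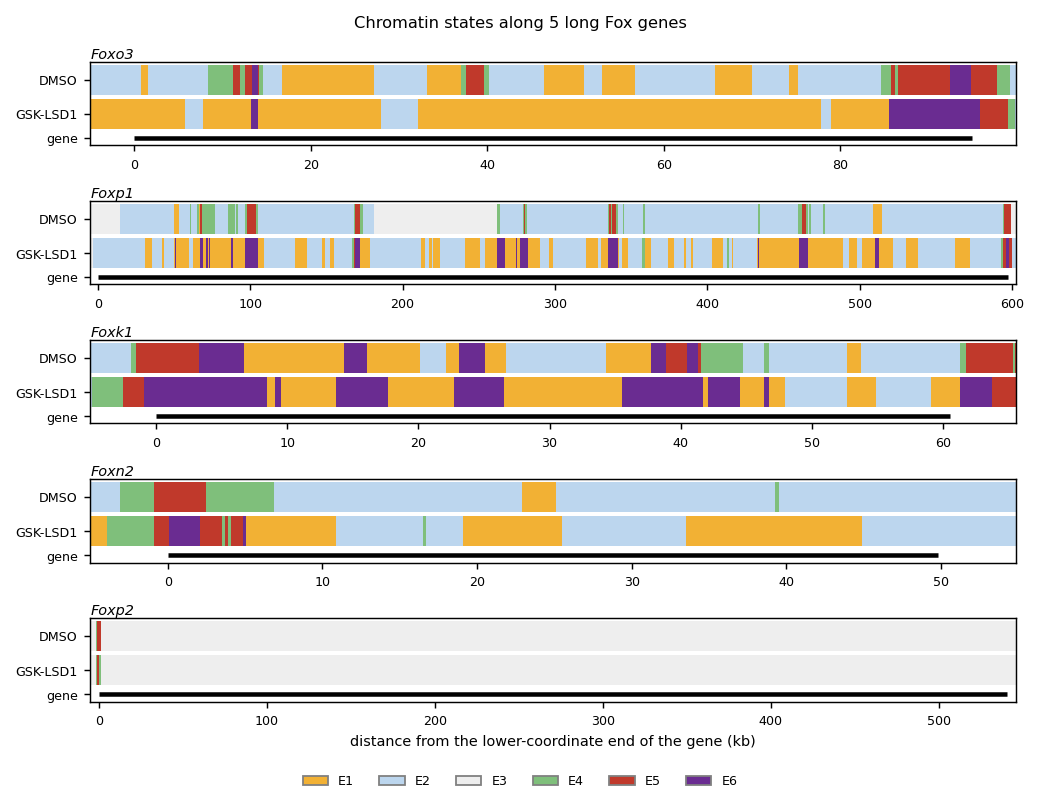
States along Foxo3, Foxp1, Foxk1, Foxn2 and Foxp2 in DMSO and in GSK-LSD1, against distance from the lower-coordinate end of the gene (kb, horizontal axis, a different scale for each gene), with the gene as a black bar. E1 (orange) covers 81.5% of the Foxo3 body and 40.3% of the Foxp1 body in GSK-LSD1, while Foxp2 is E3 apart from its start in both.

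Genes that work with the Fox factors were counted from lists, to set the family in its pathways; beside them, 66.1% of all genes and 93.6% of all genes with an end in DMSO had more E5 plus E6 area in GSK-LSD1. Of 20 FOXO target genes 15 had an end in both segmentations, the E5 plus E6 area was higher in GSK-LSD1 at 16 and lower at 2, and the median difference was 1.3 kb beside 1.4 kb over all genes. The cell cycle inhibitor gene Cdkn1a had 19.2 and 28.2 kb, whereas Irs2 had 4.8 and 3.8 kb. Of 15 genes of PI3K and AKT signalling, which restrains FOXO, 14 had an end in both and all 15 were higher (median 4.0 kb); Pik3r1 had 10.8 and 20.2 kb. Of 15 FOXM1 target genes of mitosis all had an end in both, 14 were higher and Cenpf was lower (median 3.0 kb). The 15 NuRD and CTBP genes, corepressor partners of FOXP, were all higher (median 5.6 kb), as were the 12 genes of the SIN3 and BAP1 complexes (median 2.5 kb), which include Foxk1 and Foxk2. Nearly all genes of the last 4 lists had an end, and over all genes with an end the median was 3.0 kb, so their shares of higher genes were near the share of all such genes.

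Marker genes of the tissues in which single Fox genes act were read in the same way. Of all genes, 51.7% had an end in DMSO, 54.8% had one in GSK-LSD1 and 66.1% had more area. Of 12 granulocyte markers, the labelled lineage, 4 had an end in DMSO and 9 in GSK-LSD1, so that 5 of the 8 without one gained it, beside 8.51% of all such genes, and all 12 had more area (median 6.8 kb). The other lists hold 5 to 7 genes each, and their shares were not tested against those of all genes. An end was present at 1 of 7 endothelial markers in both; at 3 of 7 mesenchymal markers in DMSO and 2 in GSK-LSD1; at 3 and 2 of 6 epithelial markers; at 1 and 0 of 5 liver and pancreas markers; at 2 and 1 of 5 neuronal markers; and at 2 in both of 6 T-cell and of 5 B-cell markers. The T-cell markers, Foxp3 among them, had a median difference of 4.6 kb, and the other tissue lists had medians from 0.0 to 1.1 kb. The T-cell median lies between Ctla4 (4.2 kb) and Foxp3 (5.0 kb), and none of the Foxp3 difference was in its own area. Levels of RNA were not analysed here.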

How the data were processed

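ChIP-seq of 3 histone marks in 2 treatments, with 1 input library, was deposited as 2 segmentations, per the labels. The values are state labels (E1 to E6) that the authors assigned, not counts, so depth is unknown. Bowtie and the build mm10 (GRCm38) come from the submitters' processing notes. Bowtie's version, the segmentation tool, the thresholds and what the input was used for were not given in the sources used here. States rest on thresholds, so weak signal just below one reads as no mark.

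Segments were read onto 200 bp bins with Python 3.11.15, numpy 2.4.6, pandas 2.3.3 and scipy 1.17.1. Genes came from RefSeq (GRCm38.p6), which matched all 44 members; strand was known for 28. Windows joined the 20 kb either side of both ends. Own area lay in the gene or within 2.5 kb of it. Calculations were tested on simulated data. Named genes were those that gained or lost an end, the 5 largest and 3 smallest differences among genes with an end in both, and, among genes with neither, the 5 with the largest start-site-type area and the 5 with the largest E1 plus E6 or marked-area difference; other members are named with their values too, except 1 member, which is counted in the totals but not reported here by name. Members, lists and tests were chosen with earlier results of these data known. Intervals are 95% Wilson intervals and cover counting error over genes only. Alternatives were E5 alone, E4 added, other windows, ends within 1 kb, starts alone, 1 gene per cluster, E2 as background and no chromosome X.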

Additional observations from a re-analysis of the deposited data

How the results depend on the processing

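Each treatment had 1 segmentation, so no replicate could be left out. No paired analysis was possible because no test was made and each treatment has a single segmentation. Of 70 recomputed counts and medians, 55 stayed within 1.5 times the reported value and 15 did not. A count of genes cannot change sign, so only the medians could reverse, and none of them did. Counting E5 alone gave 8 Fox genes losing an end, 13 genes with an end and more area, and median differences of 0.1 kb with an end and 0.6 kb without; 6 of the 8 losses were ends that were E6 in GSK-LSD1. The annotated start alone, known for 28 genes, gave 17 genes in DMSO, 16 in GSK-LSD1 and 1 gain, with fewer genes read. With 5 kb windows the median without an end was 0.4 kb and the E1 plus E6 median with an end was 0.0 kb. That median was 5.5 kb with 50 kb windows, where 26 genes had more E1 plus E6, and 4.6 kb with the gene body added. Adding E4 gave medians of 2.5 kb with an end and 0.0 kb without. With E2 as background, 30 genes had more marked area. Of 90 values for 18 named genes, 51 stayed within 1.5 times the reported value, 30 moved further without reversing and 9 reversed. With E5 alone Foxj2 differed by -1.4 kb, Foxk1 by -4.8 kb, Foxa3 by -4.2 kb, Foxn1 by -3.6 kb and Foxr1 by -0.8 kb. With 50 kb windows Foxj1 differed by 8.0 kb. With E4 added Foxh1 differed by -0.4 kb, Foxo6 by 0.6 kb and Foxc2 by -3.0 kb. Why other windows moved these values was not tested. Depth is unknown, so no limit on weak marks can be given.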
